A study of Mus musculus with 4 samples.

Results

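The genes described here are 9 of the 25239 gene symbols in the count tables: Ifih1, Ddx58, Zbp1, Irf7, Gbp2, Rsad2, Oasl2, Isg15 and Ifit1. They encode sensors of RNA and DNA or proteins made in the interferon response, and they were listed by name, some of them chosen by their higher counts in the Ogt-deleted libraries of this very comparison. Their fold changes are therefore a description, given without p-values. All 9 had a row in each table and passed the filter on low counts.

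Polyadenylated RNA had been sequenced from mouse embryonic stem cells (mESC) of the genotype Ogt fl/fl, in which Ogt, the gene for O-GlcNAc transferase, can be deleted by a recombinase. The Ogt iKO group (iKO below) held 2 libraries from cells kept for 6 days with 4-hydroxytamoxifen (4-OHT), a ligand that switches on tamoxifen-dependent recombinases, and the control group held 2 libraries from Ogt fl/fl cells kept without 4-OHT. All cells grew with LIF on mitomycin C-treated mouse embryonic fibroblasts and were then sorted as viable cells to remove those feeders, and a YFP+ gate was described for the 4-OHT-treated cells alone. The labels give CD90.2 as the stain for the stem cells and CD326 as the one for the feeders, whereas CD326 (Epcam) is usually a stem cell marker and CD90 (Thy1) a fibroblast marker. The labels name neither the recombinase line nor its promoter, describe no 4-OHT-treated cells with intact Ogt, and do not say whether the replicates were separate cultures, so the spread between replicates may be technical and the YFP+ gate, 4-OHT and loss of Ogt cannot be told apart.

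In the interferon system, sensors in the cytosol bind viral or misplaced self nucleic acid and signal through the adaptors MAVS (for RNA) or STING (for DNA) to the kinase TBK1 and the transcription factors IRF3 and IRF7, which switch on interferon genes. Secreted interferon acts through its receptors and JAK kinases on STAT proteins and IRF9, which bind the interferon-stimulated response element (ISRE) of target genes, while interferon gamma acts on the gamma-activated site (GAS). Embryonic stem cells are known for a weak interferon response. Transcripts of transposable elements are among the self nucleic acids that these sensors can bind.

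The library totals ran from 14668489 to 16504204 counts, so that the limit set by a count of 0 (3 counts) was 0.182 to 0.205 CPM (counts per 1000000 counts) on raw totals, for counting error only. Counts for Ogt were 437 and 389 with 4-OHT and 2963 and 3108 without, which put iKO at 12.8% of the control level. All 10 stem cell markers listed had counts in every library, while 9 of them were called lower (beside 32.0% of all genes). Of the 10, 3 fell at least 2-fold (beside 6.04% of all genes). Among the 9 was the pluripotency factor Pou5f1, with 8368 and 8914 counts beside 13836 and 13032 in the controls. CPM values given below are scaled by the trimmed mean of M values (TMM). Scaling by library totals alone shifted the median of all log2 fold changes from 0.024 to 0.19, and the share of called genes that were higher from 50.9% to 65.1%, so small differences have no direction free of the scaling.

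The 120 bases before the annotated start of the genes were read from RefSeq (GRCm38.p6) because the ISRE is the DNA element that defines this gene class, and 8 of the 9 genes had an entry, the exception being Zbp1. Shown are 5 of these genes and, for comparison, Gbp7, Irgm1 and Oas1a, which were not on the list of 9. The stretches lie at chr12:26456453-26456572 (minus strand) for Rsad2, chr3:142620543-142620662 (plus) for Gbp2, chr2:62646256-62646375 (minus) for Ifih1, chr4:156200819-156200938 (minus) for Isg15 and chr19:34640769-34640888 (plus) for Ifit1. Those of Gbp7, Irgm1 and Oas1a lie at chr3:142530216-142530335 (plus), chr11:48871421-48871540 (minus) and chr5:120907526-120907645 (minus). Capitals mark each match to the ISRE core (GAAA, any 2 bases, GAAA) or to its form with a 3-base gap (GAAA, any 3 bases, GAAA), on either strand, and the sequences run 5′ to 3′ along the gene's strand and end at the base before the start.
Rsad2: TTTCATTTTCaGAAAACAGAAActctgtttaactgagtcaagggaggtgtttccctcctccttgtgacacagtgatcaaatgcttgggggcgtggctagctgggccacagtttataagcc
Gbp2: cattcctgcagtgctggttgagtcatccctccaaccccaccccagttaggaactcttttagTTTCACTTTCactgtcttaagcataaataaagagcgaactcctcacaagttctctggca
Ifih1: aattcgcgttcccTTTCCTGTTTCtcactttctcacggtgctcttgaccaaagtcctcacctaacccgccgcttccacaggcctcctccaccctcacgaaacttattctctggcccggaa
Isg15: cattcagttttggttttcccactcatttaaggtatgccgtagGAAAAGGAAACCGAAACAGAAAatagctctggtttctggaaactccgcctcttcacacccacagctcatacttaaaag
Ifit1: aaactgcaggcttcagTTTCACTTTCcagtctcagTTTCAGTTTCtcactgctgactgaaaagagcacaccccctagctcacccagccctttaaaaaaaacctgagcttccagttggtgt
Gbp7: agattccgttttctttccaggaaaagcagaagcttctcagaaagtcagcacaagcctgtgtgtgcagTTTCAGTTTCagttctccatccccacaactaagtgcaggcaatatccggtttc
Irgm1: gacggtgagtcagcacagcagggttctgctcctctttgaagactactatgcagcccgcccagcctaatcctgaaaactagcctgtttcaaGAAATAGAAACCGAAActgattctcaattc
Oas1a: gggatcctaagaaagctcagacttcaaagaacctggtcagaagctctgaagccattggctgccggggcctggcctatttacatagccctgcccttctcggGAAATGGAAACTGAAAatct

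Within the 250 bases before the start, 4 of the 8 promoters (Rsad2, Gbp2, Isg15 and Ifit1) held the ISRE core letters, which 2.98% of all 32851 promoters in the table held. Isg15 had 3 overlapping matches and Ifit1 had 2. The 3-base gap form, held by 2.38% of all promoters, was present before Ifih1 and, beside the first form, before Rsad2. Neither the GAS letters TTCNNNGAA (7.02% of all promoters) nor the kappa B letters (GGG, any 2 bases, TTTCC, in 1.41%) were found before any of the 8. CpG pairs in the same windows numbered 1 to 12 with a median of 4, beside a median of 6 over all promoters. These are matches of letters, not sites shown to be bound. Before Oasl2, Ddx58 and Irf7 none of the 4 sets of letters was in this window.

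**Figure D1:**
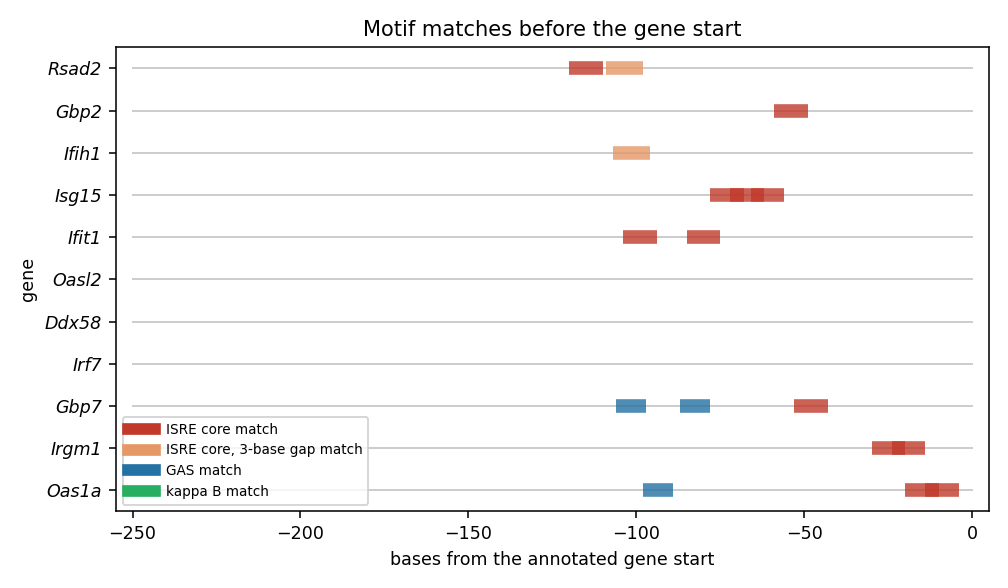
Matches of 4 motifs on either strand in the 250 bases before the annotated start of 8 of the listed genes and of Gbp7, Irgm1 and Oas1a. The horizontal axis is the distance in bases from the gene start, and each coloured block is a match. Rsad2, Gbp2, Isg15 and Ifit1 hold ISRE core matches, as do Gbp7, Irgm1 and Oas1a, and Oasl2, Ddx58 and Irf7 hold none of the 4 motifs.

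RIG-I and MDA5, the signalling RNA sensors of the RIG-I family, stood on opposite sides, while the remaining member, Dhx58 (LGP2), was not called at 38 and 27 counts in iKO beside 31 and 44 in control. Ifih1 encodes MDA5, which binds long double-stranded RNA, and lies on chromosome 2 from 62595618 to 62646255 in GRCm38. Its counts were 139 and 122 in iKO beside 39 and 24 in control, or 8.12 and 7.86 CPM against 2.52 and 1.56 CPM. Both iKO libraries were above both controls, and its log2 fold change was 1.96 (SE 0.244). Because the control counts were low and unlike, leaving out 1 library moved it between 1.65 (without control replicate 2) and 2.34 (without control replicate 1).

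Ddx58 encodes RIG-I, which binds the 5′ triphosphate ends of short double-stranded RNA. It lies on chromosome 4 from 40203777 to 40239825 with 830 and 821 counts in iKO beside 1119 and 1172 in control. Mean levels were 50.7 CPM ± 3.10 (SD, n = 2) with the deletion and 74.3 CPM ± 2.90 (SD, n = 2) without, a log2 fold change of -0.55 (SE 0.0786), with both iKO libraries below both controls. The ratio of the 2 sensors within a library does not depend on scaling. Per kilobase of exon there were 14.5 and 12.8 Ifih1 counts for every 100 Ddx58 counts in iKO, where the controls had 3.01 and 1.77. Ddx58 transcripts were thus the more abundant of the 2 in all 4 libraries.

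Zbp1 encodes a sensor of nucleic acids in the left-handed Z form, which can start necroptosis, a lytic cell death. It lies on chromosome 2 from 173206612 to 173218959, and its counts were 181 and 149 beside 43 and 51 in the controls. The groups did not overlap, at 10.1 CPM ± 0.692 (SD, n = 2) against 3.05 CPM ± 0.386 (SD, n = 2), and the log2 fold change was 1.72 (SE 0.189). Irf7, the transcription factor that amplifies type I interferon, lies on chromosome 7 from 141263183 to 141266499. Its counts were 51 and 38 in iKO and 34 and 25 in control, 2.98 and 2.45 CPM against 2.20 and 1.63 CPM. Though the groups were apart, the log2 fold change of Irf7 was 0.51 with an SE of 0.274, and it ran from 0.30 without control replicate 2 to 0.73 without control replicate 1. Its depth of at most 51 counts leaves a change of this size uncertain.

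Gbp2, on chromosome 3 from 142620663 to 142638008, differed most among the 9. It encodes a guanylate-binding GTPase that attacks membranes around pathogens and is a classic target of interferon gamma. There were 1542 and 1490 counts in iKO and 143 and 150 in control. Its level was 93.04 CPM ± 4.15 (SD, n = 2) against 9.50 CPM ± 0.381 (SD, n = 2), 9.79 times the control level. The log2 fold change of 3.29 (SE 0.0907) ranked 114 from the top among the 14525 genes tested and lay between 3.22 and 3.34 when 1 library was left out.

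Rsad2 encodes viperin, an enzyme that makes a chain-terminating nucleotide against viral polymerases, and lies on chromosome 12 from 26442743 to 26456452. Its counts were 106 and 76 beside 16 and 12 in the controls, or 5.54 CPM ± 0.918 (SD, n = 2) against 0.908 CPM ± 0.178 (SD, n = 2). The groups were apart, with a log2 fold change of 2.60 (SE 0.278). Oasl2 belongs to the 2-5A synthetase family, whose active members make the second messenger that activates RNase L. On chromosome 5 from 114896926 to 114912245, it reached 864 and 714 counts, with 247 and 242 in the controls, a log2 fold change of 1.61 (SE 0.0897) with little spread in either group.

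Isg15 encodes a ubiquitin-like protein that is attached to other proteins during the interferon response. It lies on chromosome 4 from 156199424 to 156200818 with 156 and 116 counts in iKO beside 52 and 53 in control, a log2 fold change of 1.28 (SE 0.195) with the groups apart. Ifit1, on chromosome 19 from 34640889 to 34650009, encodes a protein that binds RNA whose cap lacks the methyl marks of host messenger RNA. Its counts were 98 and 31 in iKO but 51 and 36 in control. The groups overlapped, since iKO replicate 1 was the highest of the 4 libraries and iKO replicate 2 the lowest (5.73 and 2.00 CPM against 3.29 and 2.35 CPM). The log2 fold change of Ifit1 was 0.47 (SE 0.437), and it was -0.49 when iKO replicate 1 was left out and 1.00 when iKO replicate 2 was, so a single library set its sign.

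**Figure D2:**
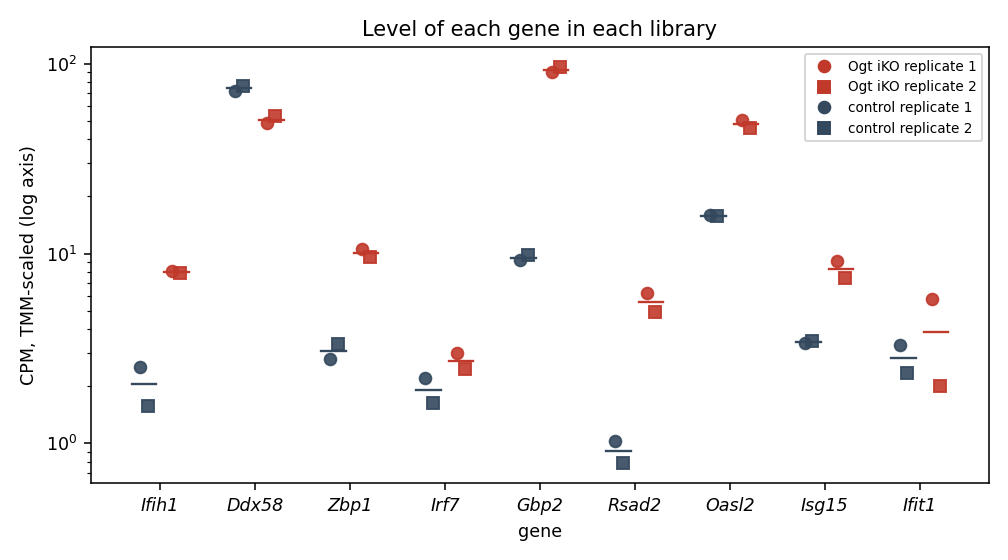
CPM (TMM-scaled, log axis) of the 9 genes in each of the 4 libraries, with a short line at each group mean of 2 libraries. Gbp2 in iKO (93.04 CPM) stands above its controls (9.50 CPM), Ddx58 lies below its controls, and the Ifit1 groups overlap.

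**Figure D3:**
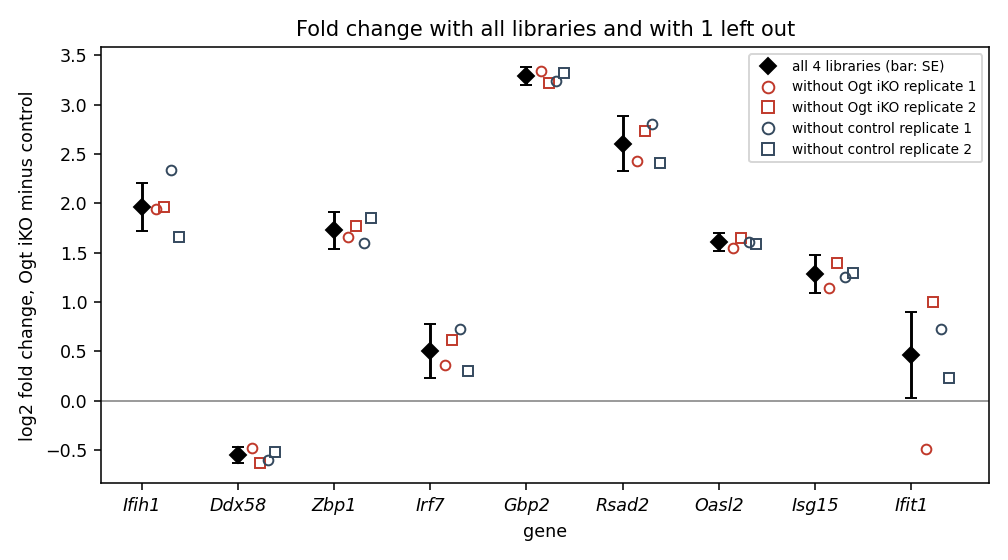
Log2 fold change (iKO minus control) of the 9 genes in the fit of all 4 libraries (diamond, bar for the SE) and in the fits that leave out 1 library (open symbols). Ifit1 changes sign, at -0.49 when iKO replicate 1 is left out and 1.00 when replicate 2 is, and the other 8 genes keep theirs.

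In the fit across all genes (edgeR's quasi-likelihood test, adjusted p under 0.05), 6 of the 9 lay past the threshold as higher and 1, Ddx58, as lower, while Irf7 and Ifit1 did not, which is given as a description and is no test of genes chosen on this contrast. Of all 14525 genes tested, 65.3% were called, 33.2% higher and 32.0% lower. The groups did not overlap in the higher direction for 7 of the 9 and in the lower direction for 1, beside 42.3% and 41.0% of all genes. Since this contrast helped choose the 9, nothing is read from these counts. By level per kilobase of exon, the order in control was Ddx58 (10.5 CPM per kb), Isg15 (4.50), Gbp2 (3.78), Oasl2 (2.49), Ifit1 (1.06), Zbp1 (0.864), Irf7 (0.506), Ifih1 (0.25) and Rsad2 (0.209). The libraries of Ifit1 and Zbp1 overlapped there, as did those of Ifih1 and Rsad2. In iKO, Gbp2 stood first at 37.0 CPM per kb, above Isg15 at 10.97, and Oasl2 (7.57) and Ddx58 (7.19) overlapped. Zbp1 (2.86) followed, and then Ifit1 (1.45), whose 2 libraries lay on either side of those of Rsad2 (1.28) and Ifih1 (0.979) and overlapped those of Irf7 (0.719). Exon lengths were those of all annotated exons merged, so these levels are approximate.

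The rest of the pathway was read from 11 lists of 186 further genes, none of them among the 9. The tables held 184 of these symbols, and 129 passed the filter on low counts. Of the 129, 55 were called higher (42.6%) and 32 lower (24.8%), beside 33.2% and 32.0% of all genes. At a fold of at least 2, a threshold added after the data were seen, 37 were higher (28.7%) and 7 lower (5.43%), beside 14.9% and 6.04% of all genes. The median log2 fold change of the 129 was 0.20, beside 0.024 for all genes, and it moved to 0.36 (all genes 0.19) with library totals, 0.32 with DESeq2, 0.33 without a filter and 0.32 without iKO replicate 2. Of the 129, 10 passed the filter through the iKO libraries alone, and 1 (Rnaset2b) through the controls alone, so that their direction was fixed by it and their calls are no evidence of a change. The 10 were Nod2, Tlr7, Phf11a, Sp100, Isg20, Uba7, Gbp6, Gbp10, Tgtp1 and Ifi47, some of them named after their values were seen. Among the other 118, 45 rose (38.1%) and 31 fell (26.3%), with a median of 0.16. The like values over all 13724 genes that did not pass through 1 group alone were 30.8%, 33.3% and -0.013, and these are the shares of all genes set beside the lists below. At a fold of at least 2, 27 of the 118 were higher (22.9%), beside 11.5% of these 13724 genes. Adjusted p values below come from this same edgeR fit, with the Benjamini-Hochberg method over all 14525 genes.

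No interferon transcript was detectable beyond stray counts. All 21 interferon genes listed, among them Ifnb1, the gene for interferon beta, had at most 1 count in any library, and 19 had 0 in all 4. The summed counts of the 21 were 1 and 0 in iKO and 0 and 1 in control. At this depth a level of up to 3 counts for a gene, or 0.205 CPM in the shallowest library, would have been missed, and interferon genes are known to be expressed in few cells of a responding culture.

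Among RNA sensors and their adaptors, 8 of 15 genes rose (53.3%, beside 30.8% of all genes) and 4 fell (26.7%, beside 33.3%), with a median log2 fold change of 0.21. With Tlr7 and Nod2, whose direction the filter fixed, 10 of 17 were called higher, and 6 of 17 by DESeq2. Mavs, the adaptor used by both RIG-I and MDA5, fell to 55.6% of control, from 586 and 597 counts to 384 and 314 (log2 fold change -0.84, SE 0.0899, adjusted p 7.039e-05). Ddx60, a helicase proposed as a cofactor of RIG-I, rose by 1.89 (SE 0.301, adjusted p 0.000664), with 110 and 68 counts against 18 and 27. The endosomal receptors Tlr3 (50 and 42 counts against 18 and 25) and Tlr7 (31 and 13 against 7 and 7) had log2 fold changes of 1.01 and 1.54, calls that DESeq2 did not make and that ended without control replicate 1, and for Tlr7 also without iKO replicate 1 or control replicate 2. Nod2, a sensor of bacterial cell wall fragments, had 22 and 19 counts against 2 and 2. Dhx9, an RNA helicase and the highest of the list by mean CPM, fell by 0.36 and stood at 1122 CPM ± 2.71 (SD, n = 2) in control but at 877 CPM ± 0.400 (SD, n = 2) in iKO.

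Among the 2-5A synthetases other than Oasl2, none was called higher. Of 7 tested genes 0 rose (30.8% of all genes) and 4 fell (57.1%, beside 33.3% of all genes) in edgeR, 2 of them by DESeq2, and the median log2 fold change was -0.70. At an unadjusted p under 0.05 again 0 rose, and DESeq2 also called 0 of them higher. Oas1a fell from 97 and 83 counts to 34 and 38 (log2 fold change -1.40, SE 0.224, adjusted p 0.000689) and Oas1g from 44 and 47 to 15 and 22 (-1.37, SE 0.304, adjusted p 0.00404), though reads could be split among the near-identical Oas1 copies. The falls of Oas1c (-0.70) and Oas3 (-0.78) were not called by DESeq2 or without control replicate 2, and that of Oas1c also ended without iKO replicate 1, without control replicate 1 or with library totals. As shown above, Oas1a fell with 2 overlapping ISRE core matches just before its start.

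On the DNA-sensing side, 2 of 10 tested genes rose (20%, beside 30.8% of all genes) and 6 fell (60%, beside 33.3%), with a median log2 fold change of -0.58. Sting1, the adaptor of the DNA pathway, rose from 81 and 98 counts to 236 and 214 (log2 fold change 1.25, SE 0.163, adjusted p 0.000219). Cgas, the enzyme that signals to it, had 94 and 99 counts against 67 and 68, a log2 fold change of 0.44 that did not pass (adjusted p 0.0732) except with library totals. Aim2, a cytosolic DNA sensor of inflammasomes, fell to 58.6% of control (adjusted p 6.981e-05). The DNA-repair proteins listed as DNA sensors fell, with Mre11a at -1.16, Xrcc6 at -0.98 and Xrcc5 at -0.61, and these act mainly on DNA breaks.

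The brakes on nucleic-acid sensing, enzymes that destroy or edit self nucleic acid and inhibitors of signalling, were mixed, with 3 of 14 higher (21.4%, beside 30.8% of all genes) and 6 lower (42.9%, beside 33.3%), at a median of -0.049. Rnaseh2a, the catalytic subunit of RNase H2, fell to 44.6% of control (adjusted p 1.324e-05). Samhd1, which removes nucleotides, rose by 0.61 and stood at 116 CPM ± 5.32 (SD, n = 2) in control but at 177 CPM ± 4.46 (SD, n = 2) in iKO. Adar, which edits double-stranded RNA, had 1700 and 1605 counts against 1637 and 1656 and did not pass (log2 fold change -0.075, and 0.094 with library totals). Exons of Chrnb2 on the other strand cover 16.8% of its exon length. Rnaset2b, left out of these counts, had 2 and 3 counts beside 11 and 12 in the controls. Socs1, an inhibitor of JAK kinases that interferon gamma induces, rose by 1.49 (SE 0.156, adjusted p 6.328e-05), while Socs3, which LIF and STAT3 induce, fell by 0.95. Trex1 was listed at 0 in all 4 libraries, and its exons lie wholly under those of Atrip on the same strand, so it was not measured.

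Kinases and transcription factors of the pathway had 6 of 18 genes higher (33.3%, beside 30.8% of all genes, and 3 by DESeq2) and 3 lower (16.7%, beside 33.3%), at a median of 0.12. The share higher was near that of all genes. Irf1, a factor induced by interferon gamma that drives Gbp genes, rose from 895 and 912 counts to 2071 and 1824 (log2 fold change 1.03, SE 0.0641, adjusted p 5.176e-06). Irf2 rose by 1.75, from 29 and 13 counts to 87 and 64, and Irf8 by 0.95, the latter a call that DESeq2 did not make and that ended without iKO replicate 1 or control replicate 2. Irf3, the first factor downstream of the sensors, had 449 and 459 counts against 506 and 502 and did not pass (-0.23, adjusted p 0.0517), although it did with the replicate number as a block, with a robust spread, with relative log expression factors or without iKO replicate 2. Irf9, a DNA-binding partner of STAT2, had a log2 fold change of -0.32 (adjusted p 0.0332) that ended in 5 of 12 alternatives, library totals and DESeq2 among them. Tbk1 had a log2 fold change of 0.19 (adjusted p 0.0480) that 6 of 12 alternatives ended, and Chuk, the highest of the list by mean CPM, did not pass at 0.035.

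The receptors and JAK-STAT genes had 5 of 11 higher (45.5%, beside 30.8% of all genes) and 1 lower (9.09%, beside 33.3%), at a median of 0.34. Jak2, a kinase of the interferon gamma receptor, rose from 174 and 165 counts to 780 and 552 (log2 fold change 1.89, SE 0.135, adjusted p 1.006e-05), and Jak1 rose by 0.74. Stat2 had 566 and 531 counts against 537 and 575, and its log2 fold change of -0.10 did not pass and was 0.068 with library totals. Of the receptor chains, Ifnar1 rose by 0.42 and Ifnar2 had -0.29 (adjusted p 0.0506), which passed in 3 of 12 alternatives (relative log expression factors, no filter and a robust spread). Ifngr1 fell by 0.77, which ended without control replicate 1. Il10rb, a chain shared with interleukin receptors, rose by 1.21, with 14.9% of its exon length under another gene.

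The guanylate-binding and immunity-related GTPases, the family of Gbp2, rose. Of 18 listed, 12 were tested, and 8 of these did not depend on the iKO libraries alone to pass the filter. All 8 were called higher and at least 2-fold up, beside 30.8% and 11.5% of all genes, with log2 fold changes of 1.22 to 2.86 and a median of 1.54. The other 4 (Gbp6, Gbp10, Tgtp1 and Ifi47), whose direction the filter fixed, were also called higher, and the 6 that were not tested had at most 11 counts in any library. Gbp7 rose from 30 and 45 counts to 305 and 275 (log2 fold change 2.86, SE 0.202, adjusted p 9.299e-06), Gbp4 from 27 and 21 to 167 and 153 (2.65) and Gbp3 from 41 and 28 to 217 and 224 (2.59). Gbp10 was counted 29 and 21 times in iKO and never in control, which makes it at least 7.83-fold higher over a floor of 3 counts per control library. Irgm1, the highest of the list by mean CPM, rose by 1.35 and stood at 30.2 CPM ± 2.88 (SD, n = 2) in control but at 77.02 CPM ± 2.80 (SD, n = 2) in iKO. In the alternatives at least 10 of the 12 were called higher. The Gbp genes lie in clusters of similar copies on chromosomes 3 and 5, and 46.3% of the exon length of Gbp10 and 11.3% of that of Gbp7 lie under another gene, so single values are uncertain.

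Antiviral effectors outside that family were split, with 8 of 28 genes higher (28.6%, beside 30.8% of all genes) and 6 lower (21.4%, beside 33.3%), at a median of 0.15. At a fold of at least 2, 7 were higher (25%, beside 11.5% of all genes). Phf11a, Sp100 and Isg20, whose direction the filter fixed, are left out of these counts. Mx1, a GTPase that type I interferon induces strongly, had at most 2 counts in any library. Ifit3, a relative of Ifit1, had 39 and 7 counts in iKO replicates 1 and 2 beside 33 and 19 in the controls, again highest and lowest in the iKO pair. Sp100 (36 and 14 counts against 8 and 4) and Slfn5 (50 and 34 against 14 and 9) had log2 fold changes of 1.94 and 1.77, and the call for Sp100 ended with DESeq2, without iKO replicate 1 or without control replicate 2. Phf11a had 19 and 20 counts against 3 and 2, while its relative Phf11d fell from 389 and 394 to 127 and 119 (log2 fold change -1.75). Ifitm2, a membrane protein that blocks viral entry and is made by stem cells without interferon, fell by 1.04, with 40.9% of its exon length under another gene.

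Partners of ISG15 and ZBP1 were read as well. For ISG15, the activating enzyme Uba7 (14 and 14 counts against 6 and 6), the conjugating enzyme Ube2l6 (275 and 335 against 75 and 137) and the ligase Herc6 (175 and 169 against 50 and 49) were all called, at log2 fold changes of 1.13, 1.45 and 1.71, though the filter fixed the direction of Uba7. Without Uba7, 2 of 2 were called higher, beside 30.8% of all genes, and DESeq2 called 2 of the 3 higher. Exons of another gene cover 13.7% of the exon length of Herc6. The call for Uba7 ended in 7 of 11 alternatives, among them every fit that left out a library. Of 5 partners of ZBP1 in cell death, 3 rose (60%, beside 30.8% of all genes) and 1 fell (20%, beside 33.3%). In either direction 4 of the 5 were called, where 65.3% of all tested genes were called. Mlkl, the pore former of necroptosis, rose from 15 and 16 counts to 87 and 46 (log2 fold change 2.00, SE 0.342, adjusted p 0.000993), Casp8 rose by 1.32 and Ripk1 by 0.65. Fadd fell by 0.71, which ended without control replicate 1, and Ripk3, the kinase that binds ZBP1, had 294 and 267 counts against 237 and 268.

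**Figure D4:**
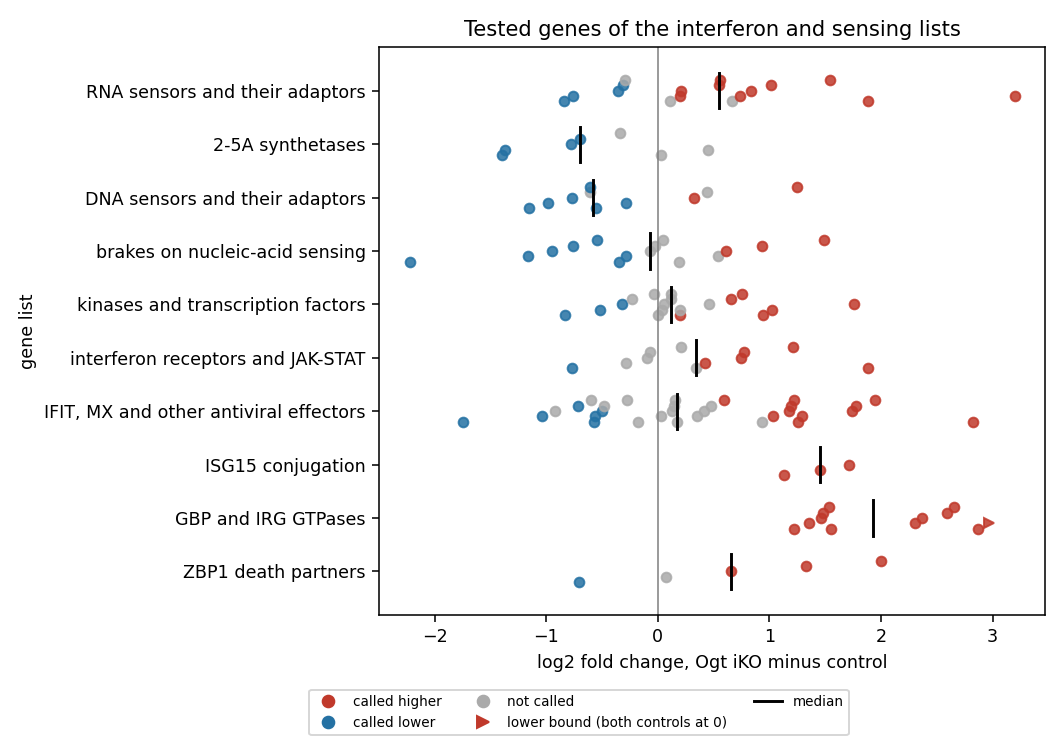
Log2 fold change (iKO minus control, horizontal axis) of each tested gene in 10 lists of the interferon and sensing pathway. Points are coloured by the call, a bar marks the median of each list, and the triangle is the lower bound for Gbp10. All 12 GBP and IRG GTPases lie to the right of 1, while the 2-5A synthetases have a median of -0.70. Among the 12, the filter fixed the direction of Gbp6, Gbp10, Tgtp1 and Ifi47. The 21 interferon genes are not drawn, since none was tested.

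Across the listed genes, ISRE core letters stood before 13 of 42 genes called higher (31.0%), 6 of 27 called lower (22.2%) and 5 of 32 that were not called (15.6%), for genes with a promoter entry. The share was highest among the genes too low to be tested, at 27 of 46 (58.7%), and it was 34.7% over all 147 listed genes with an entry. GAS letters stood before 12 of the 42 (28.6%), 2 of the 27 (7.41%), 5 of the 32 (15.6%) and 10 of the 46 (21.7%), or 19.7% over all 147. Promoters of one gene family are alike, so these genes are not independent, and no test was made.

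Cells other than stem cells were measured through their markers, because feeders and other cells can make interferon-response transcripts. In bulk RNA, a change in the number of cells of a type and a change in RNA per cell cannot be told apart. Of 11 markers of macrophages and other leukocytes, 8 were called higher (beside 33.2% of all genes) and 1 lower in iKO (7 and 0 by DESeq2), and none was at 0 in any library. Among the 8, Ptprc (67 and 36 counts against 10 and 4) and Fcgr1 (31 and 15 against 5 and 3) passed the filter through iKO alone. Their direction was thus fixed by it, and their calls are no evidence of a change. The 3 that were not higher were Cd79a and Cd3e, of lymphocytes, at -1.65 and -0.81, and Cd14 at -0.17. Adgre1, which encodes the macrophage protein F4/80, had 253 and 172 counts against 41 and 9, and Lyz2, a macrophage lysozyme, had 1542 and 649 against 316 and 51. The summed level of the 11 was 157 and 89.8 CPM in iKO against 47.3 and 19.4 CPM in control, or 3.71 times the control mean. Lyz2 carried much of this sum, and without it the other 10 stood at 67.2 and 48.0 CPM against 26.9 and 16.03 CPM, or 2.68 times.

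The libraries of a group differed in these markers where Gbp2 did not. Between the 2 controls the leukocyte sum differed 2.45-fold (1.68-fold without Lyz2), while Gbp2 in replicate 1 was 0.945 times replicate 2 and the summed GBP and IRG list 1.08 times. Between the 2 iKO libraries the leukocyte ratio was 1.75 (1.40 without Lyz2), against 0.939 for Gbp2 and 1.03 for the GBP and IRG list. Ifih1 differed in the same direction as the leukocyte sum between the controls (1.61-fold), as did Ifit1 (1.40), Irf7 (1.35) and Rsad2 (1.32), while Zbp1 (0.836), Isg15 (0.972) and Oasl2 (1.01) did not to that extent. For Ifih1, Ifit1, Irf7 and Rsad2 these ratios rest on low control counts, from 51 and 36 (Ifit1) to 16 and 12 (Rsad2), with wide counting error. Between the iKO libraries, Ifih1 was level (1.03), Rsad2 (1.27), Isg15 (1.22), Irf7 (1.22) and Ifit1 (2.87) were higher in replicate 1, as the leukocyte sum was, and Zbp1 and Oasl2 stood at 1.10 each. The part of these cells in the higher levels of the listed genes was not tested.

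Of 16 fibroblast markers, 4 were called higher (25%, beside 33.2% of all genes) and 0 lower (beside 32.0%) by edgeR. None of the 16 was at 0 in any library. At an unadjusted p under 0.05, and by DESeq2, again 0 were lower. Their summed level was 2695 and 818 CPM in iKO against 969 and 1088 CPM in control, so that iKO replicate 1 stood 3.30-fold above replicate 2. Ifit1 had a ratio of 2.87 between these 2 libraries, but between the controls it was 1.40 where the fibroblast sum was 0.891. Of the other genes, Gbp2, Zbp1, Oasl2, Ifih1 and Ddx58 had ratios of 0.917 to 1.10 between the iKO libraries and Rsad2, Isg15 and Irf7 of 1.22 to 1.27. The sort was meant to remove these feeders, and their part in the Ifit1 values was not tested. Without iKO replicate 1 the pathway lists had 47 genes higher and 34 lower, against 55 and 32 with all 4 libraries.

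**Figure D5:**
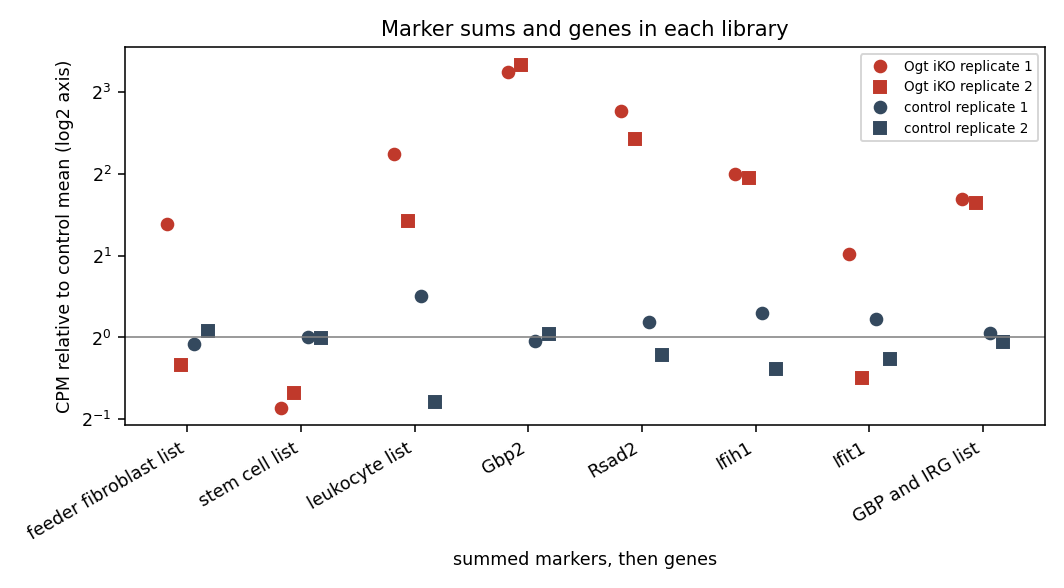
Summed CPM of 3 marker lists, and CPM of Gbp2, Rsad2, Ifih1, Ifit1 and the summed GBP and IRG list, in each library relative to the mean of the 2 controls (log2 axis). The leukocyte sum differs 2.45-fold between the controls, where Gbp2 is level, and Ifit1 is high and low in the same iKO libraries as the fibroblast sum but differs the other way from it between the controls.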

How the data were processed

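Polyadenylated RNA of 4 libraries (2 Ogt iKO, 2 control) was prepared with a stranded mRNA kit, per the labels' protocols. The authors deposited raw counts per gene symbol, with no normalization, on mm10, and the submitters' processing notes name STAR and Picard. The counted strand, the annotation and the treatment of multi-mapped reads are not given in the sources used here. The test was the quasi-likelihood F test of edgeR 4.0.16 under R 4.3.3 (TMM, filterByExpr, all 4 libraries, no covariate), with Benjamini-Hochberg adjustment over 14525 genes and a threshold of 0.05. Each SE is the size of the log2 fold change over the root of F. The code was tested on simulated data. An exact test of 2 against 2 libraries cannot give a p below 0.333. The replicates of a group differed by more than counting noise (chi-square per degree of freedom 7.43 and 4.47). Positions are from RefSeq GRCm38.p6 and exon lengths and overlaps from GENCODE M21 on GRCm38, the assembly mm10 names. A gene is called uncertain where over 10% of its exon length lies under another gene.

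The 9 genes and the 11 lists were chosen with earlier results of these data known. Named are the 9, Ogt, 13 backbone genes of the pathway, up to 4 called genes of each list with the largest change, and the gene of each list with the highest mean CPM. Some genes that this rule names are not reported here. Ripk3, Ifit3, Trex1, Dhx58 and the cell markers Pou5f1, Adgre1, Lyz2, Cd79a, Cd3e and Cd14 were named after their values were seen. Alternatives were other scalings (relative log expression, library totals, upper quartile), DESeq2 1.42.0, other filters, a robust spread, the replicate number as a block, a threshold of 0.01 and leaving out each library.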

Additional observations from a re-analysis of the deposited data

How the results depend on the processing

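With 2 libraries a group, depth limits genes of low counts and the spread between replicates limits the rest. The counts of pathway genes called higher (55) and lower (32) stayed within 1.5 times under the other scalings, DESeq2, the other filters, the stricter threshold and with each library left out. At a fold of at least 2, 7 pathway genes fell and 3048 of all genes were called, against 9478. The median of the pathway genes (0.20) was 0.36 with library totals, 0.32 with DESeq2 and 0.33 without a filter, and ran from 0.18 to 0.32 with 1 library left out. The median of all genes moved to 0.19 with library totals. For the others the cause was not tested. Library totals turned Adar (0.094) and Stat2 (0.068), and Ifit1 ran from -0.49 to 1.00 with 1 library left out. Of 65 named genes, 46 kept direction and call in all alternatives in which they were fitted.

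The replicate number as a block gave 53 pathway genes higher and 34 lower, 9641 genes called in all and a median of 0.20. Same-numbered libraries deviated from their group means with a correlation of 0.086, too weak to show a pairing, and no label states one. ISRE core matches were before 4 of the 8 genes with a promoter entry in windows of 250 and 150 bases, and before 5 with the 3-base gap form counted.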

Other observations

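The nearest tested gene on each side of the 9 was also read, 18 neighbours in all, of which 10 rose, 3 fell and 5 were not called (edgeR), beside 33.2% and 32.0% of all genes. Among the 10 were Slc16a12, Sct (12 and 18 counts against 3 and 3) and Perm1 (14 and 15 against 5 and 6). These passed the filter through iKO alone, so their calls are no evidence of a change. Cmpk2 and Gbp3, also among the 10, were already in the pathway lists. Rsad2 and its neighbour Cmpk2, a nucleotide kinase gene, were both higher, Cmpk2 with 93 and 79 counts against 34 and 32 (log2 fold change 1.30). Next to Oasl2, Oasl1 was not called and had 41 and 40 counts against 37 and 38. Ctcfl, a germline relative of CTCF beside Zbp1, rose by 1.60. Slc16a12, next to Ifit1, had 22 and 29 counts against 1 and 0, and the filter fixed its direction. Neither neighbour of Ifih1 rose, as Gca fell by 0.52 and Fap had 11 and 1 counts against 7 and 16. These neighbours were looked at after their values were known.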
